A study of Mus musculus with 4 samples.

Results

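Transcripts of 10 genes of bone marrow matrix and of IGF binding were measured in single mouse bone marrow cells. The genes are Sparc, Col1a2, Bgn, Fbln5, Ogn, Igfbp4, Igfbp5, Igfbp7, Fstl1 and Serping1, that is 10 of 17507 gene names in the files. They were chosen by name from an earlier look at these data, in which they were low for CD44+ cells, so their difference between the sorts is given as a description only. All 10 were detected, and all 10 passed the filter on low counts that left 2463 genes in the comparison of the sorts.

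The cells came from the marrow of C57BL/6 mice, digested with 2 mg/mL of collagenase IV plus 1 mg/mL of dispase and sorted singly into mineral oil. All were CD51- and are named TNCs in the labels, without the abbreviation being spelled out, and they were sorted as CD44+ or CD44-. CD51 is integrin alpha V, the product of Itgav, and CD44 is a hyaluronan receptor. Libraries were made by SORT-seq, in which each well of a plate has a barcode and each transcript a molecular identifier. The labels give no age, sex or number of animals.

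The marrow stroma is a sparse network of mesenchymal cells that makes the matrix around blood-forming cells and secretes the chemokine Cxcl12 and the cytokine Kitl on which they depend. Its matrix holds fibrillar collagen together with small proteoglycans and with proteins that bind collagen or elastic fibers. IGF-binding proteins are secreted carriers that hold insulin-like growth factors in the extracellular space and so set how much reaches the receptor Igf1r. Most blood cells make little of these proteins.

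The promoters of 4 genes are shown to set side by side members that were found in the same wells but differ in promoter sequence: the 3 IGF-binding genes and Ogn, the rarest of the 10. Each is the 250 bases before the gene's start in RefSeq (GRCm38.p6), written 5′ to 3′ on the gene's strand, with motif matches in capitals.
Igfbp4, chr11:99040994-99041243, forward strand: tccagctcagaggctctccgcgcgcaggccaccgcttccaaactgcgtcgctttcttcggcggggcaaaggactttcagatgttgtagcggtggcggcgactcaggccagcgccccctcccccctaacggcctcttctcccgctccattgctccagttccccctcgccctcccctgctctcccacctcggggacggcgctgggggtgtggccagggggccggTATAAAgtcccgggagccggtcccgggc
Igfbp5, chr1:72874866-72875115, reverse strand: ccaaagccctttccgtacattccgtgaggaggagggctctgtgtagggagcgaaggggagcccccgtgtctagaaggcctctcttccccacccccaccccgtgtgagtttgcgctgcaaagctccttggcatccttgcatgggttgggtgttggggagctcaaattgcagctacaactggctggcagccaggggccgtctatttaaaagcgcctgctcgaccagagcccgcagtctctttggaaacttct
Igfbp7, chr5:77408046-77408295, reverse strand: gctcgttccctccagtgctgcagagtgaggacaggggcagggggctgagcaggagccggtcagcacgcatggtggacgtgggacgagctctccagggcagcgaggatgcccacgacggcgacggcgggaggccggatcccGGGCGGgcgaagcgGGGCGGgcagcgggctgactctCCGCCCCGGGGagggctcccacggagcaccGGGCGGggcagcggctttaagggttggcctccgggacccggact
Ogn, chr13:49607765-49608014, forward strand: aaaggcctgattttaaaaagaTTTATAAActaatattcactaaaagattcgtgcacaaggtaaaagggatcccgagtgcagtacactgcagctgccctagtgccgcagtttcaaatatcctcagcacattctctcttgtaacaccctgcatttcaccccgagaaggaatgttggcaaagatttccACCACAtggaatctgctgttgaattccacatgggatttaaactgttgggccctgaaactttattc
The motifs searched on both strands were the TATA box (TATAAA), the CCAAT box (CCAAT), the GC box (GGGCGG), the E-box (CACGTG), an Ebf motif (CCCNNGGG), a Runx motif (TGTGGT) and a forkhead motif (TGTTTAC). The capitals mark a TATA box 28 bases before the start of Igfbp4, and 4 GC boxes in Igfbp7, of which the reverse-strand match overlaps an Ebf motif. In Ogn they mark overlapping TATA matches on both strands far from the start and a Runx match on the reverse strand. The Igfbp5 promoter held none of the 7 motifs.

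Of the 10 genes, 9 had a promoter entry (2 for Fbln5), and Serping1 had none. The GC box was found in Bgn, Col1a2, Fbln5, Fstl1 and Igfbp7, that is in 5 of 9 genes, against 32.7% of all 32851 mouse promoters of that length. The Ebf motif was found in Fbln5 and Igfbp7 (11.8% of all promoters), the TATA box in Igfbp4 and Ogn (12.4%) and the CCAAT box in Col1a2 and Fbln5 (33.8%). The Runx motif was found in Ogn alone of the 9 (14.05% of all promoters), and neither the E-box (6.02%) nor the forkhead motif (3.17%) was found in any of them. Igfbp7 had the highest GC content, 74%, and Ogn the lowest, 42%, beside a median of 52.4% over all promoters. No motif searched was shared by all 9 genes.

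The 4 plates hold 1536 wells, of which 343 had at least 1000 transcripts assigned to genes and were kept. Summed by plate and sort they form 3 libraries for each sort. Replicate 1 of each sort is a plate of its own, and replicates 2 and 3 are the upper and lower rows of plates that held both sorts and were run on another flow cell. In CD44+ libraries there were 56, 95 and 87 wells with 149707, 1118722 and 1707318 transcripts, and in CD44- libraries 44, 24 and 37 wells with 97041, 101367 and 158763 transcripts. Median transcripts per well ran between 1994 and 11225 in CD44+ libraries and between 1795 and 2544 in CD44- libraries. A low-quality profile was found in 53.6%, 41.1% and 22.99% of wells in CD44+ libraries and in 40.9%, 4.17% and 10.81% in CD44- libraries. Levels are given as CPM, a count scaled by its library total, and in such sums fewer cells of a type and less RNA per cell cannot be told apart. A count of 3, taken as the limit that a count of 0 allows, is worth 1.76 to 20.04 CPM in CD44+ libraries and 18.9 to 30.9 CPM in CD44- libraries.

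The 10 genes together were low for CD44+ cells. They summed to 120, 1032 and 505 CPM in CD44+ replicates 1, 2 and 3, against 3525, 5647 and 16091 CPM in the CD44- replicates. The highest CD44+ library lay below the lowest CD44- library. The means were 552 ± 458 CPM for CD44+ cells and 8421 ± 6727 CPM for CD44- cells (SD, n = 3 libraries each), a log2 ratio of -3.93. Each of the 10 genes was separated in the same way, beside 9.22% of all 2463 genes tested in which all 3 CD44+ libraries lay below all 3 CD44- libraries. The fitted log2 differences of the 10 lay between -4.53 and -3.63 with a median of -4.13, where the median of all genes tested was -0.04. These values come from the contrast that chose the genes, so nothing is read from them.

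**Figure D1:**
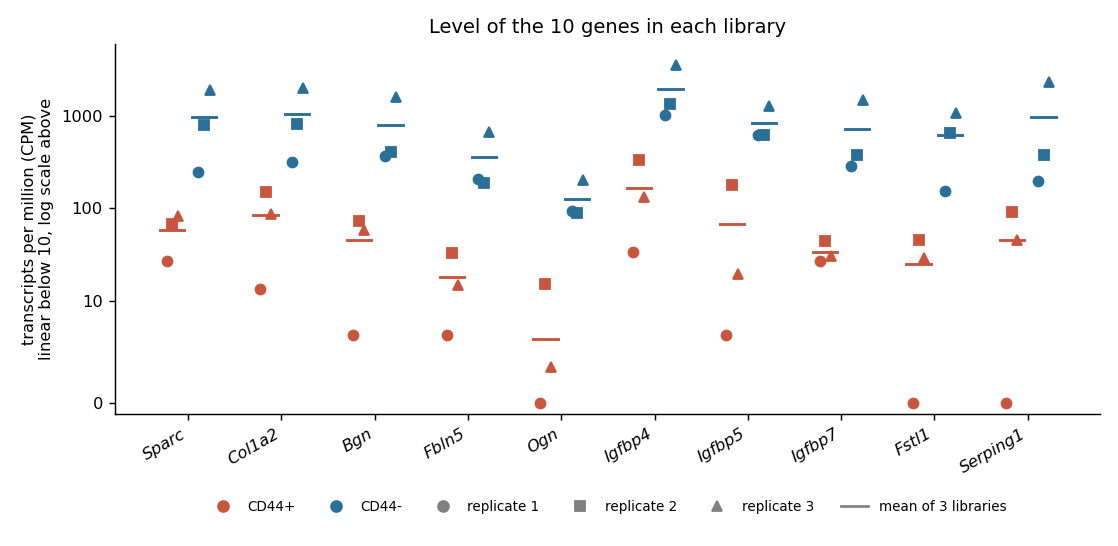
Level of each of the 10 genes (vertical axis, CPM, linear below 10 and logarithmic above) in the 3 CD44+ libraries (red, left) and the 3 CD44- libraries (blue, right), with replicates by symbol and the mean of 3 libraries as a bar. For every gene the 3 CD44+ libraries lie below the 3 CD44- libraries, and replicate 3 is the highest CD44- library.

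Among the matrix genes, Sparc (chromosome 11, 55394500 to 55423183, reverse strand, GENCODE vM21 on GRCm38) encodes osteonectin, which binds collagen and calcium. It stood at 26.7, 67.2 and 82.7 CPM in CD44+ libraries, against 248, 796 and 1907 CPM in CD44- libraries, a log2 ratio of means of -4.06. Both sorts spread widely, and CD44- replicate 3 was highest. Col1a2 (chromosome 6, 4504814 to 4541544, forward strand) encodes a chain of type I collagen, the main fibrillar collagen of bone. Its libraries read 13.4, 151 and 87.9 CPM for CD44+ cells and 320, 814 and 2009 CPM for CD44- cells, a log2 ratio of means of -3.64. The lowest CD44- library was thus still above the highest CD44+ library. Bgn (chromosome X, 73483602 to 73495933, forward strand) encodes biglycan, a small leucine-rich proteoglycan of bone and connective tissue. Its CD44+ libraries had 6.68, 72.6 and 57.9 CPM and its CD44- libraries 371, 406 and 1596 CPM, a log2 ratio of means of -4.11.

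Fbln5 (chromosome 12, 101746565 to 101819055, reverse strand) encodes fibulin-5, which organizes elastic fibers. The CD44+ libraries had 6.68, 33.1 and 14.7 CPM of it and the CD44- libraries 206, 188 and 675 CPM, a log2 ratio of means of -4.29. Replicates 1 and 2 of CD44- cells were alike, and replicate 3 stood above them. Ogn (chromosome 13, 49608046 to 49624501, forward strand) encodes osteoglycin, another small leucine-rich proteoglycan. It had 0, 17.01 and 6 transcripts in CD44+ libraries and 9, 9.01 and 32.02 in CD44- libraries, or 0, 15.2 and 3.51 CPM against 92.7, 88.9 and 202 CPM. With 73.04 transcripts in all, Ogn rests on the fewest counts of the 10.

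All 3 IGF-binding genes were low for CD44+ cells, and Igfbp4 was the most abundant of the 10 in both. Igfbp4 (chromosome 11, 99041244 to 99054392, forward strand) encodes a carrier that mostly restrains IGF and is itself cut by the protease Pappa. It stood at 33.4, 333 and 134 CPM in CD44+ libraries and at 1029, 1343 and 3528 CPM in CD44- libraries, a log2 ratio of means of -3.56. Igfbp5 (chromosome 1, 72857932 to 72874884, reverse strand) encodes a carrier that also binds bone matrix. Its CD44+ libraries read 6.68, 178 and 19.4 CPM and its CD44- libraries 619, 614 and 1271 CPM, a log2 ratio of means of -3.62. Relative to their mean, the CD44+ libraries of Igfbp5 differed more from each other than those of any other member, with an SD above their mean as for Ogn and Serping1. Igfbp7 (chromosome 5, 77349240 to 77408041, reverse strand) encodes a related secreted protein with weak affinity for IGF. It had 26.7, 43.9 and 30.6 CPM in CD44+ libraries, the narrowest spread of the 10 there relative to the mean, and 289, 376 and 1504 CPM in CD44- libraries. Its log2 ratio of means was -4.42.

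Fstl1 and Serping1 belong to neither group. Fstl1 (chromosome 16, 37776873 to 37836514, forward strand) encodes a secreted follistatin-like glycoprotein. It had 0, 51.1 and 49.2 transcripts in CD44+ libraries and 15.01, 65.5 and 169 in CD44- libraries, or 0, 45.6 and 28.8 CPM against 155, 646 and 1067 CPM. Serping1 (chromosome 2, 84765387 to 84775444, reverse strand) encodes the C1 inhibitor, which blocks the first proteases of complement and of the contact system. Its CD44+ libraries read 0, 92.3 and 45.4 CPM and its CD44- libraries 196, 375 and 2332 CPM, a log2 ratio of means of -4.40. CD44- replicate 3 stood far above the other 2 libraries of its sort. Ogn, Fstl1 and Serping1 had no transcript in CD44+ replicate 1, the smallest CD44+ library, where 0 transcripts allow up to 20.04 CPM.

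By wells, at least 1 transcript of the 10 genes was found in 12 of 56, 53 of 95 and 52 of 87 CD44+ wells and in 15 of 44, 19 of 24 and 32 of 37 CD44- wells. The mean share was 45.7% ± 21.1 for CD44+ cells and 66.6% ± 28.4 for CD44- cells (SD, n = 3). The 3 libraries of each sort overlap in this share, and the depth of the wells differed. After every well was thinned to 1000 transcripts, the shares were 17.3% ± 8.86 for CD44+ cells and 49.7% ± 22.1 for CD44- cells. Many wells with a member held very little: of 183 wells with any of the 10, 72 held a single transcript. Whether such single transcripts came from the cell in the well was not tested.

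Most transcripts of the 10 genes came from very few wells. Of 5504 transcripts, 65.5% lay in 10 wells of 343, 7 wells held 50% and 23 wells held 90%. The fullest well, in CD44+ replicate 3, had 641 of them among 18986 transcripts. For 9 of the 10 genes, 4 to 6 wells held 50% of the gene's transcripts, and for Igfbp4 10 wells did. In 3 libraries the transcripts rested mainly on a single well. That well held 74.3% of the members' transcripts in CD44+ replicate 3, 57.01% in CD44- replicate 1 and 81.3% in CD44- replicate 2. The fullest well held 27.8% and 24.02% in CD44+ replicates 1 and 2 and 23.7% in CD44- replicate 3. Without the fullest well of each library the sums were 87.5, 788 and 131 CPM in CD44+ libraries and 1569, 1236 and 13957 CPM in CD44- libraries, and the log2 ratio of means was -4.06. The sorts still did not overlap, while CD44- replicates 1 and 2 came near the highest CD44+ library.

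**Figure D2:**
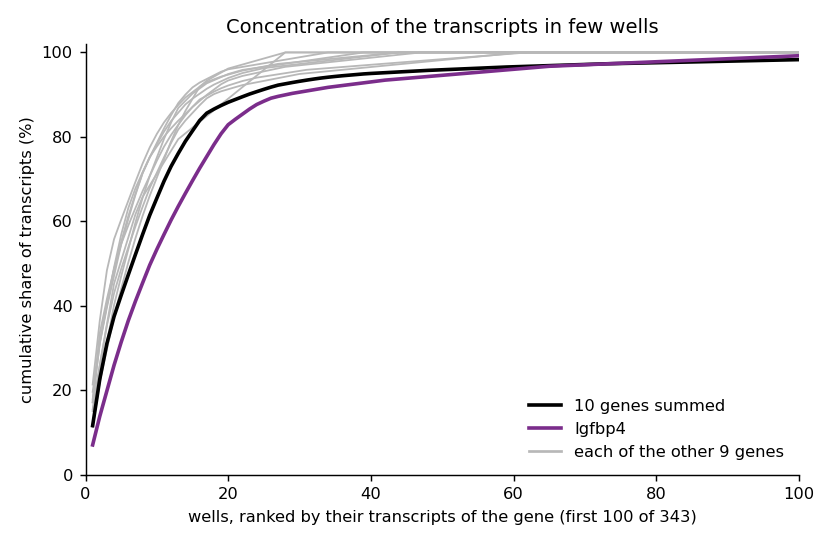
Cumulative share of a gene's transcripts (vertical axis, %) over wells ranked by that gene (horizontal axis, the first 100 of 343), for the 10 genes summed (black), Igfbp4 (purple) and each of the other 9 genes (grey). The summed curve reaches 65.5% at 10 wells, and the Igfbp4 curve climbs most slowly, to 53.4% at 10 wells.

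The genes occurred together. Transcripts of at least 5 of the 10 were found in 31 wells, which held 90.97% of all their transcripts. They were 0, 6 and 4 wells of the CD44+ libraries and 6, 4 and 11 wells of the CD44- libraries, or 10 of 238 CD44+ wells and 21 of 105 CD44- wells. All 10 were found in 14 wells, 4 of them CD44+ and 10 CD44-. Of the rest, 17 wells had 5 to 9 members, 21 had 3 or 4, 30 had 2 and 160 had none. Just outside the limit, 6 wells had 4 members, and just inside it 3 wells had 5, with 6 to 10 member transcripts each.

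Some of these wells held transcripts of blood lineages as well. In 12 of the 31 the summed erythroid, B progenitor, neutrophil, monocyte and megakaryocyte markers exceeded the stromal markers, and these 12 wells held 5.69% of the members' transcripts. The clearest case was a CD44+ replicate 2 well of 11512 transcripts that had all 10 members beside 2799 transcripts of the neutrophil list and 129 of the stromal list. In another well of that library, with 62249 transcripts and 9 members, erythroid, B progenitor and neutrophil markers were all present. No doublet caller was run, and whether such wells held more than 1 cell was not tested. The other 19 wells, 5 of them CD44+ and 14 CD44-, held 85.3% of the members' transcripts. Endothelial markers reached at most 4.0 transcripts in any of the 31 wells, and Cdh5, Plvap, Stab2 and Tek were at 0 in all of them.

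**Figure D3:**
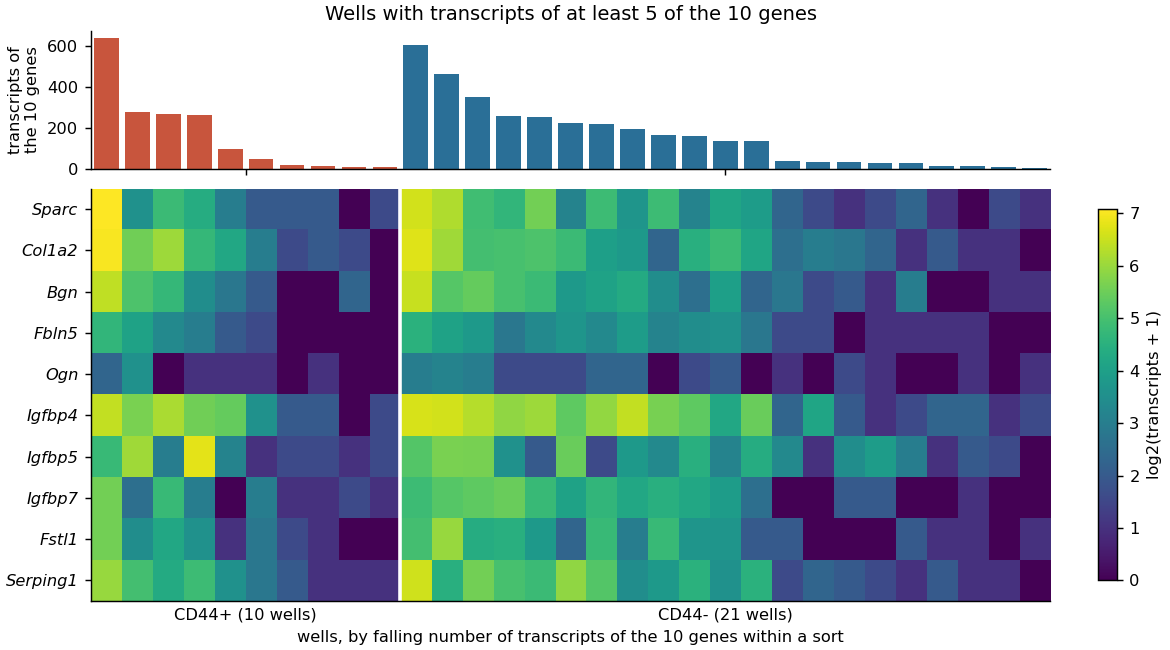
The 31 wells with at least 5 of the 10 genes, with 10 CD44+ wells on the left and 21 CD44- wells on the right, ordered within a sort by their transcripts of the 10 genes (bars, top). Colours give log2(transcripts + 1) of each gene in each well. The 4 fullest CD44+ wells and the 12 fullest CD44- wells have nearly all 10 genes, Ogn being low throughout.

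In 16 wells the 10 genes summed to at least 100 transcripts, a limit set after the values were seen: the well of rank 16 had 134 and that of rank 17 had 96.3. They were 3 wells of CD44+ replicate 2, 1 of CD44+ replicate 3, 1 each of CD44- replicates 1 and 2 and 10 of CD44- replicate 3. They held 83.9% of the members' transcripts, and the 10 genes made up 2.55% to 5.85% of each well's total, with a median of 3.42%. All 16 had transcripts of Cxcl12, Lepr, Kitl, Adipoq and Lpl, which mark the leptin receptor-positive stromal cells of marrow. Cxcl12 had 149 to 742 transcripts in a well, the median being 264. Runx2, which drives the bone lineage, was found in 12 of the 16. Of the osteoblast list, Spp1 was found in 14, bone sialoprotein Ibsp in 13, Col1a1 in 5, Alpl in 1 and Sp7, a factor of committed osteoblasts, in 0. Acta2, a smooth muscle actin, was found in 0 of 16 too, which allows up to 18.8% of such wells. The pericyte and smooth muscle list as a whole still reached 22.06 transcripts in a well. Of the fibroblast and cartilage list, Dcn was found in 12 and Col3a1 in 9 of the 16. Ptprc, which encodes the blood cell antigen CD45, had 1 transcript in each of 2 wells.

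Within these 16 wells the mix of the 10 genes was not constant. Igfbp4 took a median of 22.4% of the members' transcripts, with a range of 13.2% to 43.5%. Igfbp5 varied most of the 10, between 0.91% and 41.5% with a median of 6.28%. Its coefficient of variation over wells was 0.97, followed by 0.85 for Ogn, which had few transcripts, and 0.57 for Fstl1. The lowest were 0.34 for Igfbp4, 0.36 for Fbln5 and 0.42 for Bgn. The highest Igfbp5 well was a CD44+ replicate 2 well with 109 Igfbp5 transcripts, 7.01 of Igfbp7 and 20.1 of Sparc. At the other end a CD44- replicate 3 well had 2.0 transcripts of Igfbp5, 24.1 of Igfbp7 and 28.1 of Sparc. Across the 16 wells the Igfbp5 share ran against that of Igfbp7 (Pearson r = -0.64) and of Sparc (r = -0.55), while the shares of Igfbp7 and Fstl1 ran together (r = 0.53). These shares sum to a whole, which pushes correlations below 0, and 10 of the 16 wells come from a single library.

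Wells were also picked by marker genes that are not members. The marker list was drawn up with earlier results of these data known, so its overlap with the members is a description and no separate support. Of 24 stromal marker genes that are not members, 23 were in the files, and wells with at least 5 of them were set apart from the rest. They were 0 of 56, 8 of 95 and 11 of 87 CD44+ wells and 6 of 44, 6 of 24 and 14 of 37 CD44- wells. Of these 45 wells 25 had more blood than stromal markers, and the pooled CPM does not separate them. In the 45 wells the 10 genes stood at 6828 and 3334 CPM in CD44+ replicates 2 and 3 and at 24699, 9069 and 29436 CPM in the CD44- replicates. In the wells with fewer markers they stood at 120, 162 and 75.7 CPM in CD44+ libraries and 143, 959 and 532 CPM in CD44- libraries. Marker-bearing wells thus held the higher level in each library that had any. They were also deeper, with a median of 12480 against 4508 transcripts for CD44+ cells and 4869 against 1770 for CD44- cells, and a deeper well passes a count of markers more easily.

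With at least 8 markers, 8 CD44+ and 15 CD44- wells remained and held 88.5% of the members' transcripts. There the 10 genes stood at 11504 CPM in the CD44+ wells and 27025 CPM in the CD44- wells, and outside them at 152 CPM and 855 CPM. Blood markers exceeded stromal markers in 4 of the 8 CD44+ wells and 2 of the 15 CD44- wells. In 1 of these CD44+ wells, of 62249 transcripts, the members made up 0.15%, which lowers the pooled CPM. Among wells with at least 100 member transcripts, they made up 3.38% to 4.52% in the 4 CD44+ wells and 2.55% to 5.85% in the 12 CD44- wells. The pooled CPM is thus no measure of the level per stromal cell. In the 23 wells with at least 8 markers Igfbp4 and Serping1 were found in all, and Sparc, Bgn and Igfbp5 in 95.7%. Col1a2 and Fbln5 were found in 91.3%, Igfbp7 in 86.96%, Fstl1 in 82.6% and Ogn in 73.9%. In the other 320 wells Fbln5 was found in 2.19%, Ogn in 3.44%, Col1a2 in 12.8% and Igfbp4 in 27.5%. Outside these wells Igfbp4 was thus found most often, the other 9 lying between 2.19% and 12.8%.

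**Figure D4:**
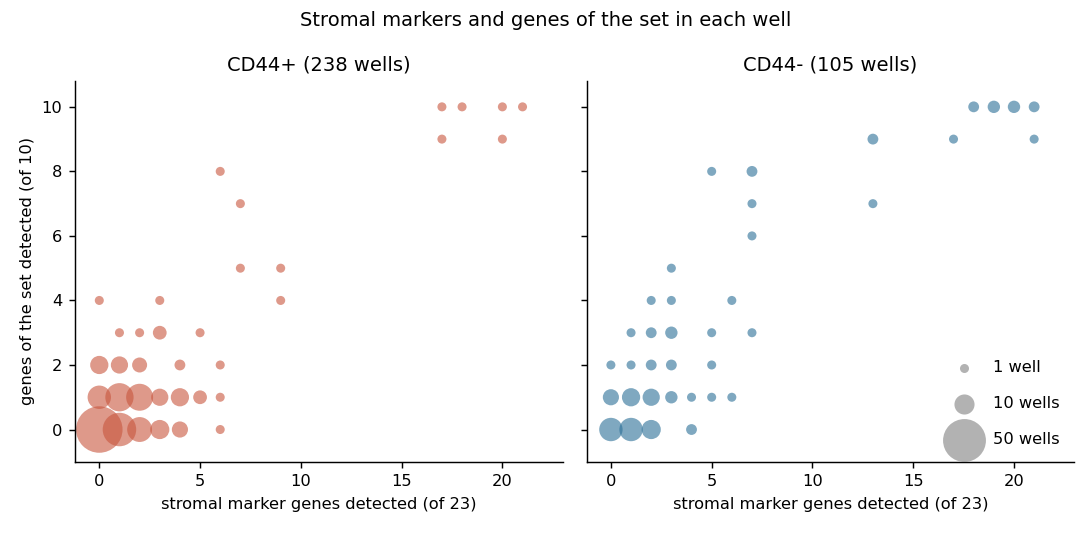
Number of stromal marker genes detected (horizontal axis, of 23) and of the 10 genes detected (vertical axis) in each well, for CD44+ wells (left, red) and CD44- wells (right, blue), with the area of a circle growing with the number of wells. Both sorts have a group of wells at the upper right with 17 or more markers and 9 or 10 of the genes.

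Pairs of the 10 genes were correlated across the 343 wells, with Pearson r between 0.58 and 0.88 and a median of 0.76 over 45 pairs, on log2(CPM + 100). The highest r was that of Fbln5 with Fstl1, and the lowest that of Igfbp4 with Ogn. In the 312 wells with fewer than 5 members, r lay between -0.04 and 0.26 with a median of 0.04. These wells were set apart by how few members they held together, which by itself lowers r among them. Wells share libraries and depth, and these r are given with no p.

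Among 10559 other genes detected in at least 10 wells, Cxcl12 was the one most like the summed members (r = 0.77), followed by the secreted glutathione peroxidase gene Gpx3 (r = 0.77) and the phosphodiesterase gene Gdpd2 (r = 0.75). Next came Gas6, a ligand of TAM receptors (0.73), the cytochrome gene Cyp1b1 (0.72), the protease inhibitor gene Serpine2 (0.71), the chemokine gene Cxcl14 (0.70), the collagen chaperone gene Serpinh1 (0.69) and Esm1 (0.68). Gpx3 stood at 0, 120 and 41.2 CPM in CD44+ libraries and 340, 406 and 2077 CPM in CD44- libraries. Cxcl12 stood at 53.4, 750 and 489 CPM in CD44+ libraries against 3605, 7604 and 19939 CPM in CD44- libraries. Of these 9 genes, Cxcl12, Gas6, Cxcl14 and Esm1 were on the stromal marker list and the other 5 were not.

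Igfbp4 departed from the other members. It was the only member of the 10 in 44 of the 111 wells that had it (39.6%). For each of the other 9, found in fewer wells, this was 1 to 17 wells, or 3.57% (Ogn) to 27.4% (Col1a2). Of the Igfbp4 transcripts 23.2% lay outside the 31 wells with at least 5 members, against 1.91% to 9.58% for the others. Outside those wells no other member exceeded 5.0 transcripts in a well, and Igfbp4 reached 52.3. In these 312 wells the genes most like Igfbp4 were Elane (r = 0.48), Prtn3 (r = 0.42) and Mpo (r = 0.41), which encode granule proteins of neutrophil and monocyte precursors, and Ctsg, another granule protease gene, was also among the first 10 (r = 0.35). Depth is shared by all of these measures.

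The 3 granule genes were then used to divide the 312 wells. They were picked for their correlation with Igfbp4 in these same wells, so the division describes that correlation and is no separate result. Igfbp4 stood at 572 CPM in the 19 wells with at least 10 transcripts of Elane, Prtn3 and Mpo and at 39.8 CPM in the other 293, and it was found in 68.4% against 23.2% of the wells. After thinning to 1000 transcripts it was found in 26.3% of the 19 wells and 6.51% of 292 others. The 19 wells were deeper, with a median of 8178 against 2837 transcripts. Of the 312 wells, those with at least 20000 transcripts were all CD44+, of which 8 had the granule genes and 35 did not, at median depths of 43184 and 33967. Igfbp4 was found in 8 of the 8, with 4.0 to 52.3 transcripts and a median of 23.6, and in 15 of the 35, with at most 3.0 transcripts. The other 9 members summed to 3 transcripts in the 8 wells and 19 in the 35. The highest of these wells, in CD44+ replicate 2, had 52.3 transcripts of Igfbp4, 60.4 of Elane, 159 of Prtn3, 276 of Mpo and 0 of Cxcl12.

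Of the 19 granule wells, 15 were CD44+ (1, 6 and 8 in replicates 1, 2 and 3) and 4 were CD44- (1, 2 and 1). In the CD44+ granule wells Igfbp4 stood at 652 and 536 CPM in replicates 2 and 3, and replicate 1 had 2 transcripts in 1 well, under the limit of 3 counts. In the 4 CD44- granule wells it had 0 transcripts, in wells with medians of 2148 to 4905 transcripts. In the rest of the 312 wells Igfbp4 stood at 20.4, 45.8 and 23 CPM in CD44+ libraries, and at 12.3, 423 and 128 CPM in CD44- libraries, where it was found in 1 of 37, 10 of 18 and 7 of 25 wells. Among the 312 wells the higher level in granule wells was seen in CD44+ libraries, and CD44- replicates 2 and 3 had Igfbp4 in the other wells. This division leaves out the 31 wells with at least 5 members, so it does not settle a difference between the sorts. Left out were CD44- replicate 2 wells with 93.4, 15.01 and 22.02 granule transcripts, which had 17.03, 4.0 and 1.0 transcripts of Igfbp4 beside other members. Outside the wells with at least 5 members, Igfbp4 had 5, 151 and 139 transcripts in CD44+ libraries, and the other 9 together had 13, 36 and 48. In CD44+ replicates 2 and 3, 221 and 89.9 Igfbp4 transcripts lay in wells with at least 5 members and 151 and 139 outside them. The 2 groups are not stromal wells against granule wells. Of the 221 transcripts, 41.2 lay in a replicate 2 well with 214 granule transcripts and more blood than stromal markers.

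**Figure D5:**
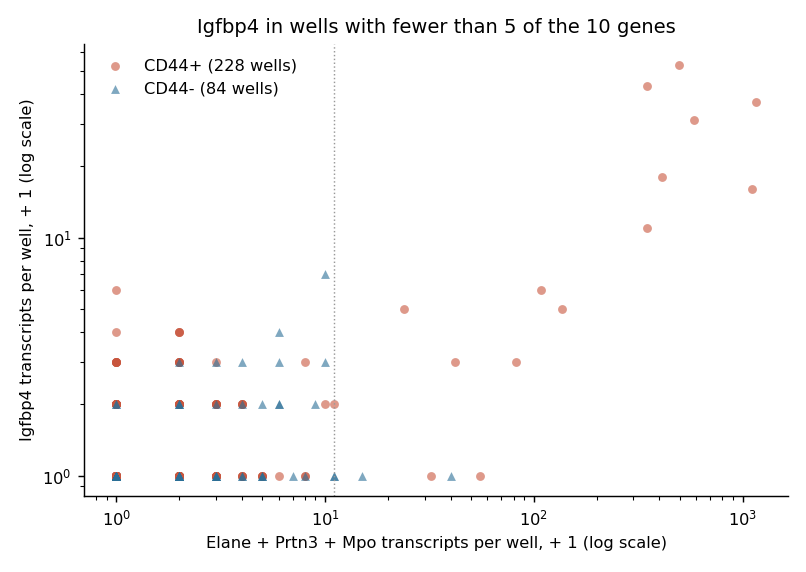
Igfbp4 transcripts (vertical axis, + 1, log scale) against the summed transcripts of Elane, Prtn3 and Mpo (horizontal axis, + 1, log scale) in the 312 wells with fewer than 5 of the 10 genes, CD44+ wells as red circles and CD44- wells as blue triangles. The dotted line marks 10 granule transcripts, and the 7 wells with 10.01 to 52.3 Igfbp4 transcripts all lie to its right and are CD44+.

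A few genes outside the set bear on the same wells and were picked after their values were seen. Col1a1 encodes the partner chain of Col1a2 in type I collagen. In the 16 wells with at least 100 member transcripts it had 44.1 transcripts in 5 wells, against 655 of Col1a2 in all 16, and Col1a2 was above Col1a1 in each of the 16. Its libraries stood at 0, 12.5 and 7.63 CPM for CD44+ cells and 10.3, 39.5 and 100.9 CPM for CD44- cells. Itgav, the gene of the antigen by whose absence the cells were sorted, was found in 13 of the 16 wells with up to 8.01 transcripts, in 5 of the other 15 wells with at least 5 members and in 11 of 312 remaining wells (3.53%). Median depths of the 3 sets were 6757, 4833 and 3048 transcripts. Cd44 was found in 5 of the 16 wells, in 10 of the 15 and in 130 of the 312.

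The IGF axis could be followed from ligand to receptor in the same wells. Igf1, the ligand, had 46.02 transcripts in 14 of the 16 wells, 4 in the other 15 and 10 in the remaining 312, so most of them lay where the binding proteins were. Igf1r, the receptor, was spread more widely, in 9 of 16, 6 of 15 and 89 of 312 wells. Igfbp3 was found in 10 of the 16 wells and Igfbp6 in 1. At the library level Igf1r was the only tested gene of 23 listed for the axis. It stood at 33.4, 98.4 and 113 CPM in CD44+ libraries and 30.9, 158 and 176 CPM in CD44- libraries, which edgeR fitted as -0.64 on the log2 scale (SE 0.53, adjusted p = 0.528).

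Few genes of the other pathway lists were abundant enough to test. A gene that passed the filter on low counts through its CD44- libraries alone could come out only as lower, so the direction of the calls is not a result. Ltbp1, Adamts2, Dcn, Tnc, Spp1 and Lamc1, named below, are such genes, with at most 60.9 CPM (Tnc) in a CD44+ library. Serpine2, at 20.04, 97.8 and 70.5 CPM in CD44+ libraries, also needed its CD44- libraries to pass. Over all 2463 genes 0.974% were called lower in edgeR, and 4.59% with the replicate pair as a block. Of 56 structural matrix genes 6 were tested and 1 was called lower, Ltbp1, which encodes a protein that stores latent TGF-beta in matrix. Its log2 difference was -3.66 (SE 0.52, adjusted p = 0.0358 in edgeR). It stood at 6.68, 12.5 and 10.5 CPM in CD44+ libraries and 92.7, 69.1 and 202 CPM in CD44- libraries. With the replicate pair as a block Dcn, Tnc, Spp1 and Lamc1 passed as lower too, so that 5 of the 6 did. Of 29 genes of collagen processing and turnover 2 were tested and 1 was called lower, Adamts2, which trims procollagen. Its log2 difference was -3.87 (SE 0.48, adjusted p = 0.0268 in edgeR). Of the genes listed for complement and the contact system, Serpine2 was called lower in edgeR (log2 difference -3.84, SE 0.64, adjusted p = 0.0410), also with the block. None of the 25 genes of the follistatin and TGF-beta list was tested. Ltbp1, Adamts2 and Serpine2 lost their call each time 1 of CD44+ replicates 1, 2 and 3 or CD44- replicates 2 and 3 was left out, with adjusted p between 0.0639 and 0.238.

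A comparison that did not enter the choice of genes is that of shared plates with single-sort plates, made with the sort as a covariate. Plate layout, flow cell and depth go together here and cannot be told apart. All 10 genes were higher on the shared plates in the fitted value, by 0.63 (Ogn) to 2.80 (Serping1) on the log2 scale with a median of 1.44, where all genes had a median of 0.02. The sizes depend on single libraries: when each was left out, the median of the 10 was 0.95 (without CD44- replicate 3) to 2.78 (without CD44- replicate 1). Without CD44- replicate 1 the difference of Serping1 was 8.47, of Fstl1 7.58, of Ogn 5.58 and of Igfbp7 0.04, and the lowest values were 1.54 for Serping1 (without CD44- replicate 3), 2.04 for Fstl1 and 0.24 for Ogn (both without CD44+ replicate 1). In edgeR 0 of the 10 passed, with adjusted p between 0.133 and 0.856, beside 2463 genes of which 0 (0%) were higher and 52 (2.11%) lower there. At an unadjusted p of 0.05 there were 4 of the 10, Fstl1, Col1a2, Sparc and Serping1, beside 282 of the 2463 genes. Without a filter on low counts edgeR called 6 of the 10 as higher on the shared plates (Sparc, Col1a2, Bgn, Igfbp4, Fstl1 and Serping1, adjusted p from 3.28e-05 to 0.0463), beside 0.573% of the 16925 entries tested, with the median of all genes at 0.45. DESeq2 called Fstl1 alone (log2 difference 2.40, adjusted p = 0.0341), beside 0.244% of all genes higher. Fstl1, Serping1 and Ogn had no transcript in CD44+ replicate 1, so their fitted values depend on the prior count. Whether the sort difference depended on the plates cannot be decided here, since single-sort plates give only 1 library of each sort. The fitted interaction in edgeR lay between -1.38 (Igfbp7, SE 1.44) and 5.79 (Serping1, SE 5.57) on the log2 scale for the 10 genes, with 5.21 for Fstl1 (SE 3.12).

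Marker lists of other cells moved between the libraries too. The stromal list stood at 294 to 1767 CPM in CD44+ libraries and 6369 to 37463 CPM in CD44- libraries, and 9 of 11 listed osteoblast genes were in the files, at 80.2 to 174 CPM and 629 to 2546 CPM. Endothelial markers stood at 60.1 to 104 CPM in CD44+ libraries and 59.2 to 94.5 CPM in CD44- libraries, which overlap. The early erythroid list stood at 2630 to 5389 CPM in CD44+ libraries and 763 to 1588 CPM in CD44- libraries. The late erythroid list stood at 1419 to 2720 and 1978 to 35253 CPM, the highest being CD44- replicate 1, and the neutrophil list at 4647 to 12064 and 1241 to 34777 CPM. The part of these shares of other cells in the members' levels was not tested.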

How the data were processed

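Single wells of 4 SORT-seq plates were read on a NextSeq500 as 75 bp paired reads, per the labels. The authors aligned reads with BWA 0.7.15 to mm10, per the submitters' processing notes, and deposited values that are expected counts of transcripts per gene and well. Undoing a saturation correction for 4096 identifiers gave whole numbers for 100% of 796931 values above 0, within 0.011, and no source used here names other upstream steps. All plates use the same 384 well barcodes, so barcodes tell no cells apart between plates. Wells were assigned to the sorts of shared plates by row, in a numbering by rows taken from the files: median spike-in counts of columns 22 to 24 were lower there by 42.2 and 59.4 times, against 1.35 and 1.22 times on the single-sort plates. No sample column was left without a sample.

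Wells with at least 1000 gene transcripts, spike-ins left out, were kept, and their counts were summed by plate and sort and rounded. Depth per library is given with the results, and intervals and limits of a count of 0 cover counting error only. Wells were called of low quality where Kcnq1ot1, Mid1, A630089N07Rik and Gm17821 made up at least 10% or mitochondrial genes at least 50% of transcripts. The sorts were compared with edgeR 4.0.16 (R 4.3.3; quasi-likelihood test, TMM, filterByExpr, Benjamini-Hochberg) without covariates, the plates with the sort as a covariate, and DESeq2 1.42.0 was an alternative. No doublet caller was run. The labels name no animals, so p-values measure the spread between libraries, which may be technical. Deviations of same-numbered CD44+ and CD44- libraries correlated at 0.42, 0.29 and 0.34 over 2463 genes, and other pairs at -0.35 to 0.07. Pairs 2 and 3 share a plate per the labels, so the numbers were taken to pair the libraries. Only the fit with the replicate pair as a block used this pairing, and the main comparison of the sorts did not.

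The 10 genes and all lists were chosen with earlier results of these data known. Named besides them are list genes that passed an adjusted p of 0.05 (otherwise the tested genes with the smallest p) and the 10 genes most correlated with the members on log2(CPM + 100), of which 1 is not reported here. Col1a1, Itgav, Cd44, Igf1, the granule genes and the limits of 10 granule, 100 member and 20000 well transcripts were chosen after values were seen. The edgeR comparisons of the sorts and of the plates were tested on simulated counts.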

Additional observations from a re-analysis of the deposited data

Results flagged for a closer look

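Wells with fewer than 1000 transcripts entered no comparison, and transcripts of the 10 genes were found in them in every library, above the limit of 3 that a count of 0 allows. There were 27, 32 and 23 in CD44+ replicates 1, 2 and 3 and 214.05, 55 and 73 in CD44- replicates 1, 2 and 3. CD44- replicate 1 stood out, with 7 such wells that had at least 5 of the 10 genes, against 1 in CD44+ replicate 3. Its fullest such well had 44.04 member transcripts, of 9 genes, among 827, together with 38.2 of Cxcl12.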

How the results depend on the processing

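The fitted differences of the 10 genes and of the named pathway genes kept their sign under the alternatives in which they were fitted. So did the log2 ratio of the summed 10 genes in those given below. After thinning only 6 of the 10 passed the filter on low counts, with a median of -2.15 in the comparison of the sorts. In the comparison of the sorts 25 genes passed in edgeR. With the replicate pairs as a block 156 passed, with DESeq2 270, without wells of low quality 56, with a well minimum of 500 transcripts 41, without a filter on low counts 477 (142 higher and 335 lower) and on the shared plates alone 161. With every well thinned to 1000 transcripts 0 passed in edgeR, of 502 tested and with 33 at an unadjusted p of 0.05. Leaving out each library gave 0 to 115 genes: 115 without CD44- replicate 1 and 0 without any of the other 5. In the comparison of plates 52 genes passed, 0 without wells of low quality, 287 without a filter, 11 after thinning and 0 to 106 when each library was left out. The log2 ratio of the summed 10 genes was -4.75 to -3.05 when each library was left out, -2.58 after thinning and -2.73 as a mean over wells. The share of wells with a member was 38.6% to 57.8% in the CD44+ sort and 56.6% to 82.8% in the CD44- sort when each library was left out, and 17.3% in the CD44+ sort after thinning. The 10 fullest wells held 63.3% with a minimum of 500, 67.8% with 2000, 54.7% after thinning and 65.7% to 79.6% when each library was left out, and 4 to 7 wells then held 50%. Wells with at least 5 members numbered 4 to 10 in the CD44+ sort and 10 to 21 in the CD44- sort when each library was left out. In the CD44+ sort they numbered 5 after thinning and 5 without wells with more blood than stromal markers, an alternative added after seeing the data. With at least 3 members there were 20 CD44+ and 32 CD44- wells. In wells picked by stromal markers the 10 genes stood at 36000 CPM in the CD44+ sort after thinning, 1651 with at least 3 markers and 11504 with at least 8. Leaving out each library gave 3334 to 6828 CPM there and 11971 to 28796 CPM in the CD44- sort. Such wells numbered 5 after thinning, 56 and 8 with at least 3 and 8 markers and 8 to 19 without each library in the CD44+ sort. In the CD44- sort they numbered 16 after thinning, 15 with at least 8 markers and 12 to 26 without each library. The cause was not tested for these shifts. Of 64 values of the pathway genes under alternatives, 22 lost their call. With 1.76 to 30.9 CPM as the limit of 3 counts, CD44- libraries and CD44+ replicate 1 say little of rare members.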
